A study of Arabidopsis thaliana with 2 samples.

Results

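The genes GH3.3, GH3.17, IAA29, HAT2 and LBD16, grouped as auxin-induced from general knowledge, were examined in Arabidopsis thaliana seedlings with components of a synthetic oxygen sensor. They were taken by name from the probe sets that the platform annotation gives to a single gene, and each of the 5 had exactly 1 such probe set, so the rule of keeping the brightest probe set per locus left nothing out. They are 5 of 13286 loci with a single-gene probe set. One array held RNA of the triple expressor, whose Col-0 seedlings express AD-HIFCOOD, GBD-pVHL and PHD3. The other held RNA of the double expressor, Col-0 seedlings that express AD-HIFCOOD and GBD-pVHL without PHD3. Both fusions were therefore present in each genotype, and PHD3 was the named difference. Seedlings of both genotypes were 7 days old, grown on sugar-containing medium, left untreated and genotyped one by one before RNA extraction. The promoters that drive the transgenes, the number of lines and the number of seedlings behind each array were not stated in the labels. No plants without a transgene and no auxin treatment are among the samples. Auxin inducibility itself was therefore not measured for any of the 5, and they may differ in it. Each genotype had 1 array, so nothing was tested, no p-value is given, and the number of arrays limits the precision.

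Auxin, chiefly indole-3-acetic acid, acts by bringing Aux/IAA repressor proteins to the TIR1/AFB receptors, which leads to their degradation and frees the auxin response factors to switch on target genes. Among those targets are genes that damp the signal again. Some GH3 enzymes join indole-3-acetic acid to amino acids and so lower the free hormone, and new Aux/IAA proteins restore repression. Other targets carry the response on into growth, such as HD-ZIP class II factors, which are also known from the shade response, and LBD factors, which start lateral roots. HIF is an animal factor of the response to low oxygen, pVHL binds hydroxylated HIF, and PHD3 hydroxylates HIF on proline when oxygen is present.

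GH3.17, HAT2 and IAA29, 3 of the 5 genes, were higher in the triple expressor, and the other two, GH3.3 and LBD16, were lower. Each difference was small, between 0.28 and 0.41 on the log2 scale in size. The direction did not follow the class of gene: 1 of the 2 conjugating enzymes and 2 of the 3 transcriptional regulators were higher. The probe sets of GH3.3, GH3.17 and HAT2 lay above the floor of 5.71, the 40th percentile of all log2 values, and those of IAA29 and LBD16 lay below it on both arrays.

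The conjugating enzymes differed in opposite directions. GH3.17 (AT1G28130), which encodes an amido synthetase that conjugates indole-3-acetic acid, chiefly to glutamate, had a log2 signal of 8.41 in the triple expressor and 7.99 in the double expressor. The difference of 0.41 is 1.33-fold, the largest in size of the 5 and the 946th highest of 22746 gene probe sets. GH3.3 (AT2G23170), which encodes a related synthetase and is a widely used early auxin response gene, had a log2 signal of 7.65 in the triple expressor and 8.02 in the double expressor. Its difference of -0.36 is a 1.29-fold higher signal in the double expressor and ranked 1010th from the lowest.

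Both enzyme genes are read by bright probe sets. The signal of GH3.17 lay at the 79.7 percentile of gene probe sets on the triple array and at the 74.2 percentile on the double array. That of GH3.3 lay at the 68.4 percentile on the triple array and at the 74.6 percentile on the double array. The difference of GH3.3 minus that of GH3.17 was -0.77, a quantity in which probe affinity and any constant shift between the arrays cancel. As a measure of technical disagreement, 59 loci have a pair of probe sets above the floor, and the triple minus double values of these partners were apart by a median of 0.14 and by at most 0.64. Over all 144 loci with more than 1 probe set the largest gap was 0.87, and 1 locus reached the size of the GH3 gap. That spread is between probe sets on the same arrays and holds no variation between plants, RNA extracts or labelling. Partners also read the same gene, so their gaps are no yardstick for a gap between different genes, which was not tested.

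The regulators also went both ways. HAT2 (AT5G47370), an HD-ZIP class II transcription factor gene, had a log2 signal of 8.12 in the triple expressor and 7.71 in the double expressor, a difference of 0.41 or 1.33-fold. It is the only regulator of the 3 above the floor, at the 75.6 percentile on the triple array and the 69.7 percentile on the double array. Its difference was within 0.0038 of that of GH3.17. With 1 array per genotype such closeness cannot be resolved. For scale only, the SD per probe set between probe sets of a locus above the floor was 0.17, which is no yardstick between different genes.

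IAA29 (AT4G32280), an Aux/IAA repressor gene known from auxin and shade responses, had a log2 signal of 4.22 in the triple expressor and 3.85 in the double expressor. Its difference of 0.36 is 1.29-fold, but both signals were under the floor. Unlogged, the values were 18.6 in the triple and 14.4 in the double expressor, a difference of 4.14, where that of HAT2 was 68.3. When 32 was added to the unlogged values before the logarithm, which damps the differences of dim probe sets, IAA29 was at 0.12.

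LBD16 (AT2G42430), an LBD transcription factor gene of lateral root initiation, had a log2 signal of 4.37 in the triple expressor and 4.64 in the double expressor. Its difference of -0.28, a 1.21-fold higher signal in the double expressor, was the smallest in size of the 5. LBD16 too was under the floor on both arrays, and its damped difference was -0.12. IAA29 and LBD16, both below the floor, therefore had opposite signs.

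**Figure D1:**
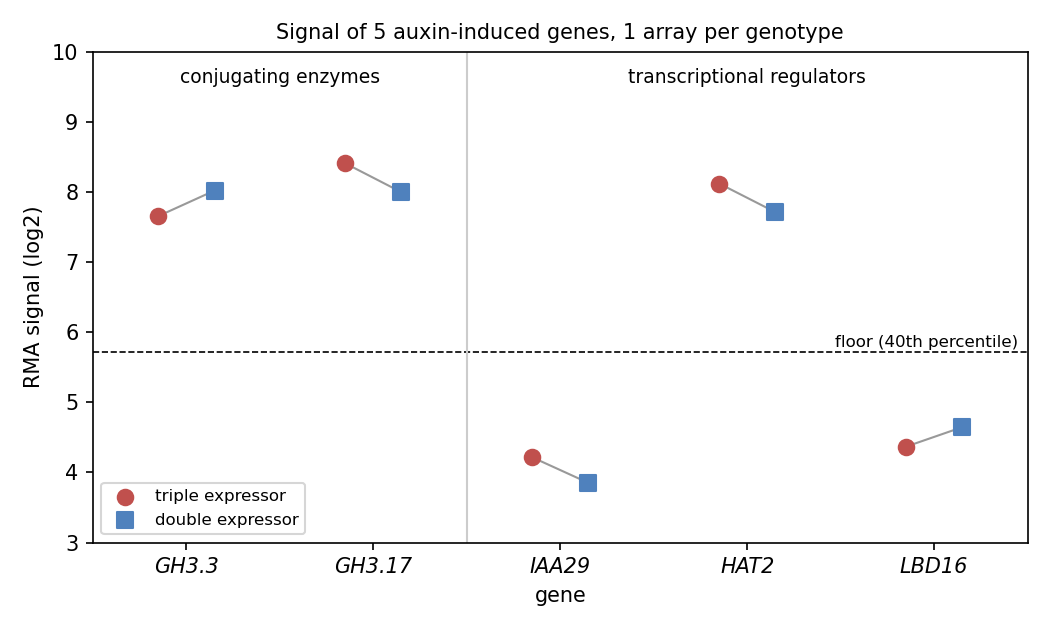
RMA signal (log2, vertical axis) of the 5 genes on the triple array (red circles) and the double array (blue squares), 1 array per genotype and so no error bars; grey lines join the values of a gene and the dashed line is the floor of 5.71. GH3.17, IAA29 and HAT2 are higher on the triple array, GH3.3 and LBD16 on the double array, and IAA29 and LBD16 lie under the floor.

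The order of the signals differed between the arrays for the 3 bright probe sets. In the triple expressor it was GH3.17 at 8.41, HAT2 at 8.12 and GH3.3 at 7.65. In the double expressor it was GH3.3 at 8.02, GH3.17 at 7.99 and HAT2 at 7.71. LBD16 and then IAA29 came last on both arrays. Without replicates it cannot be said which neighbours in these orders differ beyond their spread. Probe sets also differ in affinity, so an order of signals is not an order of transcript abundance.

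As classes, the conjugating enzymes had the higher median signal and the regulators the higher median difference. Over members above the floor, where HAT2 is the only regulator, the median signal of enzymes minus regulators was -0.088 in the triple expressor, a turned sign, and 0.29 in the double expressor, where over all members it was 3.66 in the triple and 3.36 in the double expressor. The median signal of the enzymes was 8.03 in the triple and 8.01 in the double expressor, and that of the regulators was 4.37 in the triple and 4.64 in the double expressor. HAT2, however, lay between the enzymes in the triple expressor, so the classes overlapped in signal there, and they did not overlap in the double expressor. The median difference was 0.02 over the enzymes, the midpoint of 0.41 and -0.36, and 0.36 over the regulators, whose values were 0.41, 0.36 and -0.28. Enzymes minus regulators was thus -0.34, but the ranges of the classes overlapped almost fully. The contrast was -0.14 with means in place of medians and -0.10 on the damped scale, and with 2 and 3 genes on 1 array per genotype it was not tested.

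None of the 5 genes was 2-fold apart, a size reached by 0.259% of the 13896 gene probe sets above the floor and 0.0565% of the 8850 below it. All 5 were at least 1.2-fold apart, which 20.2% of the probe sets above the floor and 22.6% of those below it also were. By direction, 12.2% of the probe sets above the floor were higher in the triple expressor by 1.2-fold or more, as GH3.17 and HAT2 were, and 7.94% were lower by that size, as GH3.3 was. Below the floor 9.44% were higher by that much, as IAA29 was, and 13.2% lower, as LBD16 was. The 5 genes were put together with earlier results of these data in view, so their count of 5 is a description. After lowess centring 4 of the 5 were at least 1.2-fold apart, with LBD16 at -0.26 just inside, and on the damped scale 3, the members above the floor.

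**Figure D2:**
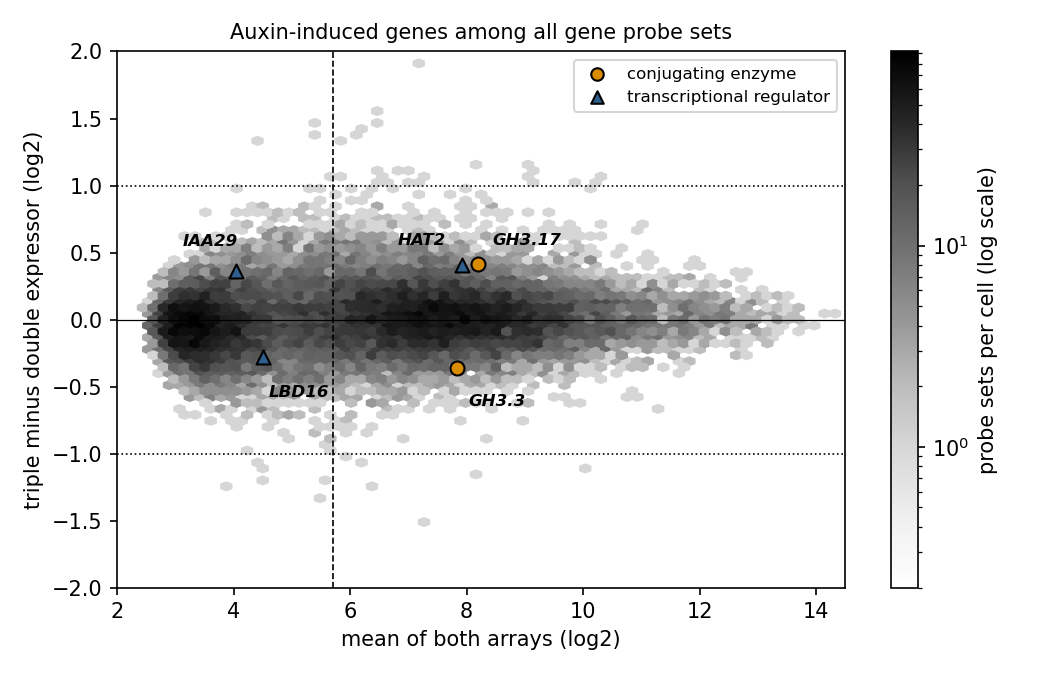
Difference, triple minus double expressor (log2, vertical axis), against the mean of both arrays (log2, horizontal axis) for 22746 gene probe sets, shaded by their number per cell on a log scale, with the 2 conjugating enzymes as circles and the 3 regulators as triangles. The dashed line is the floor of 5.71 and the dotted lines mark a 2-fold difference; all 5 genes lie inside those lines, and GH3.17 and HAT2 lie close together.

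The wider GH3 family did not move to one side. Of 19 listed loci 11 were measured, 6 higher and 5 lower in the triple expressor, with a median of 0.05 beside 0.0 over all gene probe sets. Which of the listed enzymes act on indole-3-acetic acid was not examined, so the median describes the family and not auxin conjugation. WES1, also called GH3.5, which conjugates indole-3-acetic acid, was the only further member above the floor, at 7.61 in the triple and 7.45 in the double expressor, a difference of 0.17. The other eight lay below the floor. Among these AT1G23160 had the third largest difference of the family in size, 0.32. GH3.1 was at 3.54 in the triple and 3.76 in the double expressor. By difference, triple minus double, GH3.3 was the lowest and GH3.17 the highest of the 11 measured loci.

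Of the Aux/IAA genes, which encode the repressors of auxin response factors, 7 of 29 listed loci were measured. The rest had no named probe set, so the family as a whole was not seen. Of the 7 measured loci 6 lay below the floor and 1 above it. In the triple expressor 5 were higher and 2 lower, where 49.5% of all gene probe sets were higher. Their median was 0.14, beside -0.032 over the gene probe sets below the floor. IAA33 differed most, at 4.13 in the triple and 3.74 in the double expressor, a difference of 0.39, followed by IAA29 itself. IAA18 was the one member above the floor and had the opposite sign, at 8.08 in the triple and 8.29 in the double expressor, or -0.22.

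Of the genes of lateral root initiation 4 of 13 listed loci were measured, 3 lower and 1 equal, where 48.8% of all gene probe sets were lower. LBD16, below the floor, had the largest difference and the only one of 1.2-fold or more. LBD29, a relative in the same process, lay below the floor and differed by -0.06. PUCHI, an AP2-type factor of lateral root primordia, differed by -0.01 below the floor. The receptor kinase gene CR4, also called ACR4, had the same value of 6.48 on both arrays. LBD16 and LBD29 were also the 2 measured loci of the 40 with an LBD or ASL symbol. HAT2 was the only measured locus of 10 HD-ZIP class II genes, and HAT2 and IAA29 were the 2 measured of 9 shade-induced genes.

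The measured genes that set the supply of free auxin went both ways. Of 20 loci of auxin synthesis 4 were measured, 1 higher and 3 lower, with a median of -0.11. YUC2, a flavin monooxygenase of the main synthesis route, was at 5.59 in the triple and 6.02 in the double expressor, a difference of -0.43. Its signal was below the floor in the triple expressor and above it only in the double expressor. YUC4 differed by -0.14 below the floor, and YUC6 by 0.09 above it. Of 13 loci listed for conjugate release and inactivation 4 were measured, 2 higher and 2 lower, with a median of -0.07 that was 0.048 over the 3 above the floor. Over all gene probe sets 49.5% were higher and 48.8% lower. The other loci of both lists had no named probe set, so neither synthesis nor conjugate release and inactivation is covered as a whole. The largest was AT1G14120, given by locus code only, at 6.46 in the triple and 5.99 in the double expressor, a difference of 0.48. The glucosyltransferase genes UGT84B1 and UGT74D1, whose enzymes act on indole-3-acetic acid, differed by -0.30 and -0.19, the first of them below the floor. Auxin transport, the receptors, the auxin response factors and the SAUR genes had no named probe set and were not analysed here.

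Over all of these auxin lists without the 5 genes, 26 loci were measured, of which 12 were higher, 13 lower and 1 equal, with a median of -0.01. Most loci on these lists had no named probe set. Of the 26, 4 were higher by 1.2-fold or more and 2 lower by as much, where over all gene probe sets 11.1% were higher and 9.98% lower by that size. None reached 1.5-fold, which 1.87% of all gene probe sets did, and 18 of the 26 lay below the floor.

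**Figure D3:**
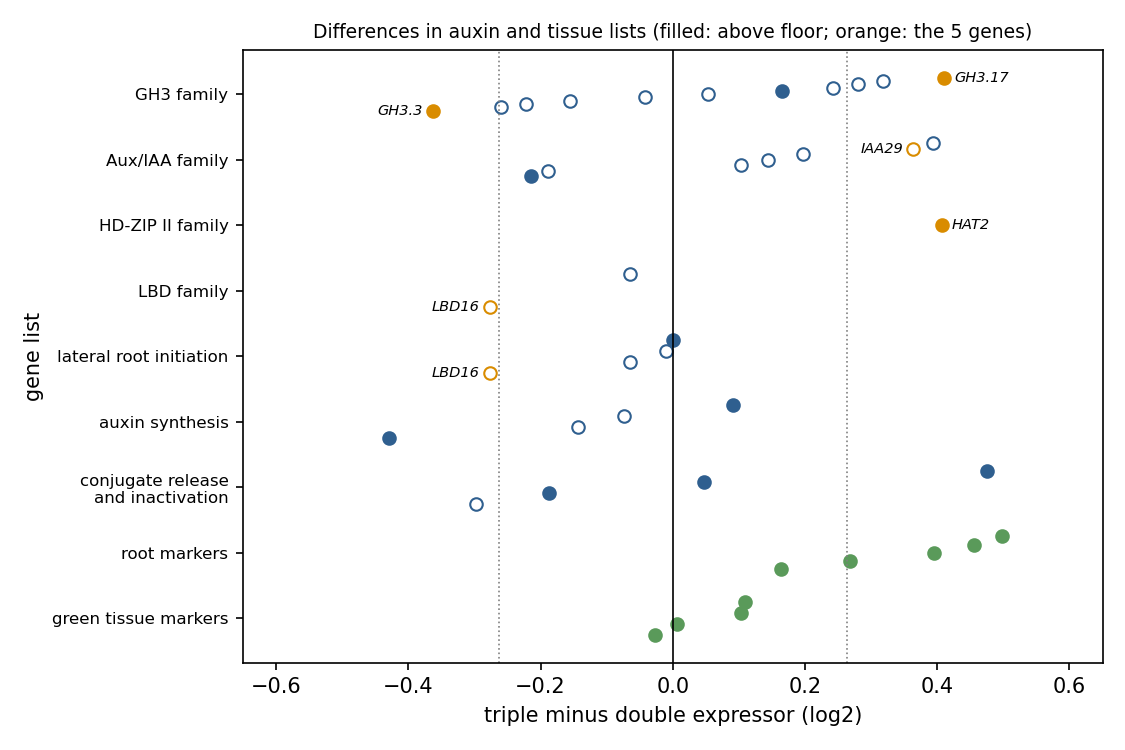
Difference, triple minus double expressor (log2, horizontal axis), of each measured locus in the auxin lists and in root and green tissue markers, 1 point per locus; filled points lie above the floor on at least 1 array, orange points are the 5 genes and dotted lines mark 1.2-fold. The auxin lists lie on both sides of 0, and the 5 root markers lie to the right of it.

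Whole seedlings hold roots and green tissue, and markers of both were present on the arrays. All 5 measured of 11 root markers were above the floor and higher in the triple expressor, between 0.16 and 0.50, with a median of 0.40. Of all gene probe sets 49.5% were higher. By 1.2-fold or more 4 of the 5 markers were higher, as were 12.2% of gene probe sets above the floor. The list was chosen with earlier results of these data known, so its count is a description. They were the beta-glucosidase gene PYK10 at 0.16, the peroxidase genes AT3G01190 at 0.27 and AT4G26010 at 0.50, and the root hair expansin genes EXPA18 at 0.40 and EXPA7 at 0.46. Their summed unlogged signal was 9483 in the triple and 8330 in the double expressor. Most of that sum is PYK10, at a log2 signal of 13.02 in the triple and 12.86 in the double expressor. The 4 measured of 14 green tissue markers differed by -0.03 to 0.11, with the light-harvesting gene LHCB4.2 at 0.11, the Rubisco activase gene RCA at 0.10 and the Calvin cycle gene PRK at -0.03, and their summed signal was 34811 in the triple and 33588 in the double expressor. GH3.17, HAT2 and IAA29 lay inside the range of the root markers, while GH3.3 and LBD16 differed in the other direction. IAA29 was under the floor and at 0.12 on the damped scale. The upper quartile over all gene probe sets was 0.139. By 1.2-fold or more, as GH3.17, HAT2 and IAA29 were, 11.1% of all gene probe sets were higher. The part of the root share in these results was not tested. In bulk samples fewer cells of a type and less RNA per cell cannot be told apart.

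The loci whose pair of log2 values lay nearest to each gene were found among 13216 other nuclear loci by Euclidean distance over the 2 arrays. Nearest to GH3.17 was AT4G33980, at 8.38 in the triple and 8.01 in the double expressor, and then AT1G50660. Nearest to GH3.3 were AT1G04350, at 7.69 in the triple and 8.01 in the double expressor, and AtSec20. HAT2 lay nearest to BZIP61, at 8.10 in the triple and 7.72 in the double expressor, and then to AT5G53650. IAA29 lay nearest to ATGLR1.2 and AT5G24313, and LBD16 to LEA4-5 and AT3G01730. All of these distances were between 0.01 and 0.05, and a search over so many loci makes them small. The closest pair among the 5, GH3.17 and HAT2, was 0.40 apart. Far fewer loci were compared there, so these distances cannot be set against each other. A likeness over 2 values says only that a probe set has a similar signal and difference.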

How the data were processed

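Biotin-labelled RNA of 2 genotypes was hybridised to Affymetrix arrays, 1 array each. Per the submitters' processing notes the authors used RMA to make the deposited log2 values. Its software and version were not stated, and the log2 scale was read from the range of 2.39 to 14.3. RMA sets the arrays to one distribution, so a shift of most genes would not be seen. Groups came from the sample titles. Of 22810 probe sets 64 are controls and were left out. The annotation names 1 gene for 13513, several for 503 and none for 8730, and 13436 of the first matched a RefSeq gene of TAIR10.1 by gene identifier. The brightest probe set per locus was used, and no coordinates are printed because the sources name no build.

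Differences are triple minus double expressor. The named genes are the 5 members, up to 3 per list by size of difference, all in lists of at most 3, and the 2 nearest loci per member. WES1, GH3.1, CR4, PYK10 and AT3G01190 fall outside it and were added once their values were known. The members and lists were chosen with earlier results of these data known. Alternatives were median and lowess (span 0.3) centring, all probe sets per locus, a damped scale (32 added), no cross-hybridising probe sets, other floors and other folds. Python 3.11.15, numpy 2.4.6, pandas 2.3.3, statsmodels 0.14.6 and matplotlib 3.10.9 were used.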

Additional observations from a re-analysis of the deposited data

How the results depend on the processing

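All alternatives were chosen with earlier results of these data known. Under median and lowess centring, which shifted differences by at most 0.04 in size, no member changed sign in 10 recomputed values; the other settings could not turn a member's sign by construction. A move was judged against the SD per probe set between probe sets of a locus, 0.17 above the floor and 0.20 over all. For list medians it was divided by the square root of their size, which treats the loci of a list as independent. That yardstick only sorts moves by size and is no test. By construction the damped scale shrinks dim probe sets: IAA29 was at 0.12, the difference of enzymes minus regulators at -0.10, and their signal gap at 2.48 in the triple and 2.34 in the double expressor. With means the gap was 2.46 in the triple and 2.60 in the double expressor. With HAT2 as the only regulator above the floor it was -0.088 in the triple, a reversed sign, and 0.29 in the double expressor. Over loci above the floor the medians were 0.17 for GH3, -0.22 for Aux/IAA (1 locus) and 0.048 for conjugate release and inactivation, and on the damped scale 0.039 for Aux/IAA and 0.30 for root markers. Probe sets 2-fold higher and lower, 28 and 8, numbered 16 and 3 with a floor at the 60th percentile, 9 and 3 on the damped scale, 212 and 76 at 1.5-fold and 1700 and 1104 at 1.2-fold. Each member has 1 probe set, so the settings on probe sets say nothing about the 5. No replicate could be left out. No paired analysis was possible because only 1 array stands for each genotype.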
